A study of Mus musculus with 27 samples.

Results

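The stretch of the imprinted miR-379 to miR-410 cluster that runs from miR-381 to miR-410, with the more distant miR-3072, holds 16 miRNA precursors. Every mature miRNA named for 1 of these precursors, from either arm of the hairpin, was followed through all 27 libraries. The rule found 32 mature miRNAs, 1 pair of arms for each precursor, of the 844 miRNAs named in the series. A miRNA that a library did not list was taken as 0 reads there.

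All libraries were small-RNA libraries from C57BL/6 mice, with no transgene, age or sex given in the labels. The suprachiasmatic nucleus (SCN), the brain's circadian clock in the hypothalamus, was compared with hypothalamus and cortex, with 2 libraries per tissue. A time course of the SCN sampled 11 time points once each, 4 h apart, the first at ZT2 and the last at ZT42 (ZT, zeitgeber time in h). Neurons of the SCN were labelled as AVP, VIP or CCK, after the peptides vasopressin, VIP (a vasoactive peptide of the gut and brain) and cholecystokinin. Each type had 2 libraries, and the labels say neither how the cells were collected nor whether they were pooled. SCN at CT18 (circadian time 18 h) was labelled CTRL or LP, with 2 libraries each; LP is not spelled out, and the series design speaks of light-response miRNAs.

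The cluster lies in the imprinted Dlk1-Dio3 domain, where the miRNAs and long non-coding RNAs are made from the chromosome inherited from the mother. The precursors are cut from long transcripts, of which Mirg is the annotated host of this stretch, so that many hairpins can share 1 primary RNA. Each hairpin gives a 5p and a 3p miRNA, of which usually 1 is kept, and bases 2 to 8 of the kept strand, the seed, pair with target mRNAs. The domain's miRNAs are known for high expression in neurons. miR-134-5p is known for restraining dendritic spine growth, miR-485-5p for acting on synaptic proteins, and miR-369-3p for binding AU-rich elements.

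In GRCm38, the 16 precursors lie on the + strand of chromosome 12 within 21.1 kb from the start of miR-381 to that of miR-3072. The first, miR-381, is at chr12:109726822-109726896 and the last, miR-3072, at chr12:109747878-109747960. In GENCODE M21 the long non-coding gene Mirg spans chr12:109729764-109749460, and miR-381, miR-487b and miR-539 lie before its start. Exons of at least 1 Mirg transcript cover miR-382, miR-134, miR-668, miR-485, miR-377, miR-412, miR-369, miR-410 and miR-3072. Introns hold miR-154, miR-496a, miR-541 and miR-409. miR-409 (chr12:109743158-109743236), miR-412 (chr12:109743289-109743368), miR-369 (chr12:109743418-109743496) and miR-410 (chr12:109743715-109743795) follow each other without another precursor of the cluster between them. miR-541 is at chr12:109742409-109742498, miR-668 at chr12:109734732-109734797, miR-485 at chr12:109734902-109734974 and miR-154 at chr12:109738433-109738498. A gene model on the opposite strand overlaps miR-539 (Gm44322) and another overlaps miR-409 (Gm24321).

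Mature sequences were taken from RefSeq (GRCm38.p6), which matched 29 of the 32 members; miR-487b-3p, miR-539-3p and miR-485-5p were not matched. The first sequences shown are the arm pairs whose balance differed between tissues, and the others are members with the largest differences between tissues or neuron types or with the highest levels. Capitals mark the seed.
miR-409-5p: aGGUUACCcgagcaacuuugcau
miR-409-3p: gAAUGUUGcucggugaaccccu
miR-541-5p: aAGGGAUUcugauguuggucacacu
miR-541-3p: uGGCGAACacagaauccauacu
miR-369-5p: aGAUCGACcguguuauauucgc
miR-369-3p: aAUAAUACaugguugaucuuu
miR-377-5p: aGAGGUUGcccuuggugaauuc
miR-377-3p: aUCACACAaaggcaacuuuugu
miR-154-5p: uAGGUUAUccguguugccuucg
miR-154-3p: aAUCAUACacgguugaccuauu
miR-485-3p: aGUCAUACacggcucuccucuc
miR-412-5p: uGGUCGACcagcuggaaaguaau
miR-381-3p: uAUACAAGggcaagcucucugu
miR-539-5p: gGAGAAAUuauccuuggugugu
miR-382-5p: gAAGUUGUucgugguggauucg
miR-134-5p: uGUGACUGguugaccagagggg
miR-668-3p: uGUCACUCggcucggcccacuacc
miR-410-3p: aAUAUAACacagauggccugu
miR-3072-3p: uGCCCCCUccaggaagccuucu

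No 2 of the matched members had the same seed. The seeds of miR-154-3p and miR-485-3p differed at 1 base and both miRNAs held the 10-base run ucauacacgg, and the seed of miR-369-3p also differed from that of miR-154-3p at 1 base. The seeds of miR-412-5p and miR-369-5p differed at 1 base as well. So did those of miR-409-5p and of miR-410-5p, each from miR-487b-5p and from miR-496a-5p. Among other mouse miRNAs of the same table, miR-344d-3p and miR-344e-3p on chromosome 7 had the seed of miR-410-3p, and miR-672-5p on chromosome X had that of miR-377-5p. The 2 arms of 1 precursor did not share a seed in any matched pair, so a change in the balance of arms was a change between different seeds.

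Libraries held 469808 (CCK replicate 1) to 5133920 (ZT26) miRNA reads, and levels are given as CPM, reads per 1000000 miRNA reads. A count of 0 reads allowed up to 0.585 to 1.70 CPM in tissue, time-course and CT18 libraries and up to 6.39 CPM in neuron libraries, by a floor of 3 reads. Shares and floors cover counting error only. Summed over the 3 miR-7 miRNAs used as hypothalamic markers, hypothalamus gave 79973 and 81405 CPM, the SCN 51701 and 48395, and cortex 4235 and 5300. The time course gave 12026 to 52917. The 4 CT18 libraries gave 2209 to 5831, overlapping cortex and below every other library labelled SCN. Vascular markers (6 miRNAs) summed to 3.3 to 176.5 CPM in neuron libraries against 3238 to 11843 in tissue and time course. The 10 neuron markers were also lower in neuron libraries, 3754 to 21808 CPM against 36976 to 165979. Erythrocyte markers (4 miRNAs) summed to 943.1 to 2164 CPM against 486.2 to 1402, in AVP and CCK neurons from miR-486-5p alone.

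miR-409-5p had the highest mean over all libraries, 5563 CPM, followed by miR-541-5p with 4872 and miR-381-3p with 1352. Of the 32 members, 14 were listed in all 27 libraries. Another 9 never reached the minimum for any test, a level of 10 CPM in at least 2 libraries of a model (3 for the time course), and their highest level was 32.8 CPM (miR-410-5p in CCK replicate 2). miR-668-5p had 2 reads over all libraries, miR-539-3p 5 and miR-412-3p 16. The other 6 of these were miR-381-5p, miR-487b-5p, miR-134-3p, miR-496a-5p, miR-410-5p and miR-3072-5p. For miR-381, miR-487b, miR-668 and miR-410 the abundant arm was 3p in every library that listed both arms.

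The members together took 0.672% to 3.62% of the miRNA reads of a library. The share was 1.37% in both SCN libraries, 1.61% and 1.55% in hypothalamus, and 1.46% and 1.54% in cortex. Along the time course it ran from 1.49% to 1.94% with a median of 1.57%, the highest at ZT26. AVP neurons gave 3.19% and 3.62% and CCK neurons 2.56% and 2.42%, while VIP neurons gave 1.84% and 1.28%. The CT18 libraries had the lowest shares, 0.672% and 0.764% for CTRL and 0.869% and 0.710% for LP. The 95% Wilson interval was at most 0.047 percentage points on either side. Without miR-541-5p and miR-409-5p the CT18 means, 0.633% and 0.677%, lay above the SCN mean of 0.559% and the time-course mean of 0.402%. Shares were not tested, and libraries of different parts may differ in batch.

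**Figure D1:**
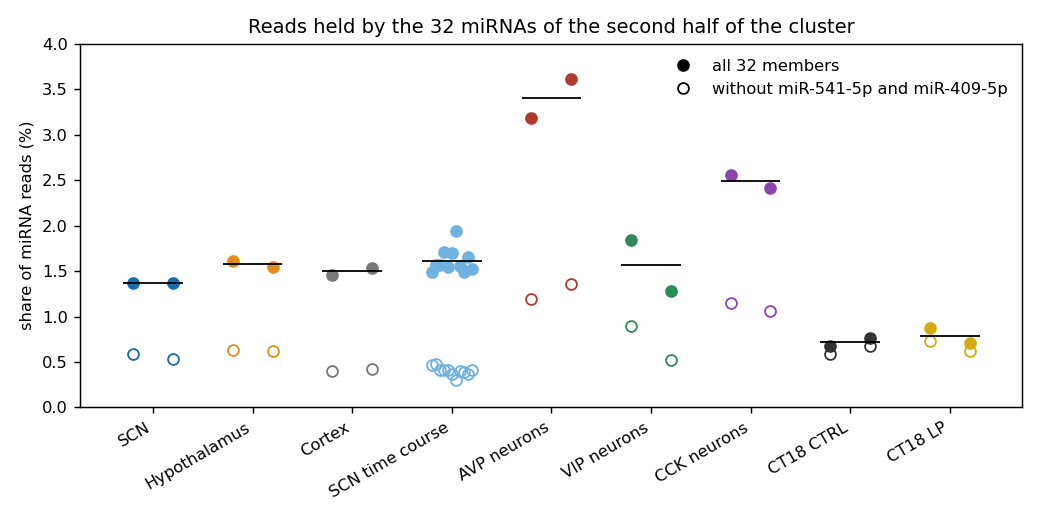
Share of all miRNA reads (%, y axis) held by the 32 members in each library, by group (x axis); filled points are all members, open points leave out miR-541-5p and miR-409-5p, and bars are group means of the filled points. AVP neurons are highest (3.19% and 3.62%), and in the CT18 libraries the filled and open points nearly meet.

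Between SCN and hypothalamus the members moved in both directions. miR-668-3p, miR-485-5p, miR-485-3p, miR-3072-3p, miR-409-3p and miR-377-5p rose in the SCN, and miR-369-3p, miR-154-3p, miR-154-5p, miR-377-3p, miR-541-3p, miR-381-3p and miR-409-5p fell. Of 21 members tested, 6 rose (percent called among all 378 miRNAs tested, 28), 7 fell (42.9) and 8 did not pass (limma on log2 values, Benjamini-Hochberg adjusted over all miRNAs, threshold 0.05). The 13 calls are 61.9% of the members tested, against 70.9% of all miRNAs tested. Their median log2 fold change was -0.18, against -0.29 over all miRNAs, and the groups did not overlap for 18 of 21 members against 87.3% of all. With median-ratio scaling, which moved the median of all miRNAs from -0.29 to 0.00, 10 members rose and 6 fell. In bulk tissue, fewer cells of a type and less RNA per cell cannot be told apart.

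miR-668-3p had 581.9 and 504 CPM in the SCN, 177.9 and 198.7 in hypothalamus and 86 and 95.5 in cortex. The 3 tissues did not overlap, and the SCN was 2.88-fold above hypothalamus (log2 fold change 1.53 ± 0.15 SE, adjusted p = 1.9e-05). The other arm, miR-668-5p, had 0 reads in all 6 libraries. miR-485-5p, known for its action at synapses, was at 234.3 and 228.3 CPM in the SCN against 110 and 98.7 in hypothalamus, 2.22-fold higher (adjusted p = 0.00018). miR-3072-3p, from the last hairpin, had 98.9 and 73.1 CPM against 41.2 and 36.9, 2.20-fold higher (adjusted p = 0.0011). Both had their SCN libraries above every other tissue library.

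miR-369-3p went the other way. It had 289.1 and 234.4 CPM in the SCN and 866.5 and 838.8 in hypothalamus, 3.26-fold lower in the SCN (log2 fold change -1.71 ± 0.14 SE, adjusted p = 7.3e-06), with cortex between them at 530.8 and 541.5. miR-154-3p had 9.8 and 10 CPM in the SCN against 42.5 and 49.1, 4.63-fold lower (adjusted p = 4.4e-05). The SCN was lowest for both, and miR-154-3p, whose seed is 1 base from that of miR-369-3p, was named after its values were seen, as its level is under 50 CPM. miR-541-3p had 44.1 and 28.1 CPM against 109.1 and 91.9, 2.78-fold lower (adjusted p = 0.00027). miR-381-3p fell 1.52-fold, from 1829.5 and 1672.3 CPM in hypothalamus to 1223.1 and 1081.5 (adjusted p = 0.0017).

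The abundant pair miR-409-5p and miR-409-3p moved in opposite directions. miR-409-3p had 765 and 674.8 CPM in the SCN against 428.2 and 433.1 in hypothalamus, 1.67-fold higher (adjusted p = 0.00061). miR-409-5p had 4578.5 and 4589.3 CPM against 6159.7 and 6151.9, 1.34-fold lower (adjusted p = 0.0014), but with median-ratio scaling its log2 fold change was -0.14 (adjusted p = 0.23) and the call was lost, as it was with quantile normalization, edgeR and DESeq2 (0.107 to 0.588). Neither miR-541-5p (3240.4 and 3816.4 CPM against 3597.7 and 3075.9, adjusted p = 0.58) nor miR-410-3p (1074.3 and 863.2 against 1178.6 and 1221.5, adjusted p = 0.0515) passed. With other settings they did: miR-541-5p was higher in the SCN with median-ratio scaling (log2 fold change 0.37, adjusted p = 0.026), quantile normalization (0.039), edgeR (0.039) and DESeq2 (0.012), and miR-410-3p was lower with quantile normalization (0.030) and with a pseudocount of 10 (0.046). The call of miR-485-3p was lost without SCN replicate 1 (adjusted p = 0.063). That of miR-377-5p was lost without SCN replicate 1, hypothalamus replicate 1 or hypothalamus replicate 2 (adjusted p = 0.098 to 0.18). Along the SCN time course miR-409-3p ran from 217.4 to 501.6 CPM, a range that covers hypothalamus and cortex (291.4 and 305.7). miR-377-5p had 4 to 17.1 CPM there, below hypothalamus (19.2 and 18.4). miR-668-3p (439 to 790.9) and miR-485-5p (206.7 to 528.9) stayed above hypothalamus. miR-485-3p (15.6 to 51.5) and miR-3072-3p (35.1 to 151.2) had their lowest values below it. These levels were not tested.

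The SCN also differed from cortex in both directions, with more miR-668-3p and miR-134-5p and less miR-541-3p and miR-409-5p. Of 21 members, 9 rose (percent called 41.3), 6 fell (38.9) and 6 did not pass; the 15 calls are 71.4% of the members tested, against 80.2% of all 378 miRNAs. The median log2 fold change of the members was 0.29 against 0.06 over all, and 18 of 21 did not overlap (90.2% of all). With quantile normalization 10 rose and 8 fell. The risers were miR-668-3p, miR-134-5p, miR-3072-3p, miR-485-5p, miR-485-3p, miR-409-3p, miR-382-5p, miR-487b-3p and miR-410-3p. Those that fell were miR-541-3p, miR-154-3p, miR-154-5p, miR-377-3p, miR-369-3p and miR-409-5p.

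miR-668-3p was 5.98-fold higher in the SCN than in cortex (log2 fold change 2.58 ± 0.15 SE, adjusted p = 3.6e-07). miR-134-5p, the regulator of dendritic spines, had 170.2 and 192.8 CPM in the SCN, 136.7 and 158.6 in hypothalamus and 33.3 and 40 in cortex. The SCN was 4.95-fold above cortex (adjusted p = 1.6e-06), while the difference from hypothalamus did not pass on the deposited scale (log2 fold change 0.30, adjusted p = 0.14). It passed with median-ratio scaling (log2 fold change 0.59, adjusted p = 0.011), quantile normalization (0.046), edgeR (0.012) and DESeq2 (0.013), higher in the SCN in each. miR-382-5p had 250.8 and 409.4 CPM in the SCN against 142.7 and 156.2 in cortex, 2.21-fold higher (adjusted p = 0.00093). For miR-485-5p the fold was 3.17, for miR-3072-3p 3.25, for miR-409-3p 2.41 and for miR-410-3p 1.50, with adjusted p at most 0.0025. These members had no cortex library as high as the lower SCN library.

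Cortex had the highest miR-541-3p, 148.2 and 143.8 CPM, and the SCN was 4.04-fold lower (adjusted p = 2.1e-05). miR-409-5p had 7910.5 and 8098.7 CPM in cortex, and the SCN was 1.75-fold lower (adjusted p = 1.4e-05). miR-369-3p was 2.05-fold lower than in cortex (adjusted p = 7.2e-05). miR-541-5p, with 2738 and 3034.7 CPM in cortex, and miR-381-3p, with 1152.1 and 1318, did not pass (adjusted p = 0.054 and 0.47). With quantile normalization both did (0.036 and 0.019), miR-541-5p higher and miR-381-3p lower in the SCN, and edgeR also called miR-541-5p (0.047). None of the 15 calls was lost when any 1 of the 6 libraries was left out.

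Hypothalamus had more of 10 members than cortex (percent called 41.8) and less of 2 (16.4), with 9 not passing. The 12 calls are 57.1% of the members tested, against 58.2% of all 378 miRNAs, and 18 of 21 members did not overlap (83.9% of all). The median log2 fold change was 0.49 against 0.41 over all. Here the scaling mattered: median-ratio scaling moved the median of all miRNAs to 0.07 and left 6 higher and 3 lower, and quantile normalization left 4 and 4. Over all 378 miRNAs, median-ratio scaling left 109 higher and 98 lower, and quantile normalization 79 and 93. miR-134-5p was 4.03-fold higher in hypothalamus (adjusted p = 1.1e-05), miR-382-5p 2.43-fold (355.4 and 371.8 CPM, adjusted p = 0.00066), miR-668-3p 2.07-fold (adjusted p = 0.00026) and miR-410-3p 1.86-fold (adjusted p = 0.00031). These 4 passed under both other scalings too. miR-487b-3p (525.9 and 540.9 CPM against 304.4 and 301.6, 1.76-fold) and miR-369-3p (1.59-fold) passed with median-ratio scaling and not with quantile normalization (adjusted p = 0.0595 and 0.0528).

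miR-381-3p (1.42-fold), miR-485-5p (1.43-fold) and miR-409-3p (1.44-fold) passed as deposited, and with median-ratio scaling they did not (adjusted p = 0.22 to 0.36). miR-409-5p was 1.30-fold lower in hypothalamus than in cortex (adjusted p = 0.0036) and passed under both scalings. miR-541-5p did not pass (adjusted p = 0.17). Calls of miR-381-3p and miR-485-5p were lost without hypothalamus replicate 1 or cortex replicate 1 (adjusted p = 0.0543 to 0.135). Those of miR-3072-3p, which also rose, were lost without any of the 4 libraries compared (0.0774 to 0.18) and with median-ratio scaling (0.40), and those of miR-377-5p, the other member that fell, without either hypothalamus library or cortex replicate 2 (0.062 to 0.10).

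**Figure D2:**
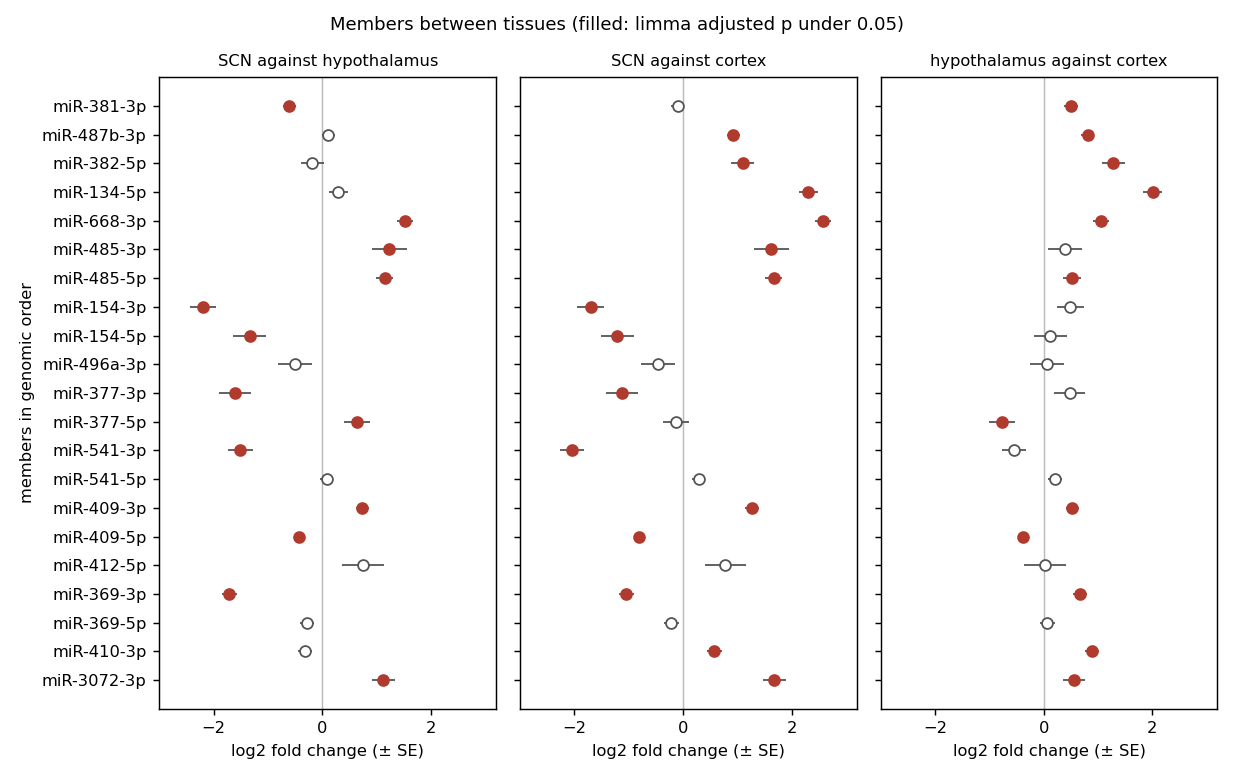
Log2 fold change with its SE (x axis) of the 21 tested members, in genomic order (y axis), in the 3 comparisons of tissues; filled points passed the limma test. miR-668-3p rises by 1.53 and 2.58 in the SCN, whereas miR-369-3p and miR-541-3p fall against both other tissues.

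Markers moved between the tissues as well. Vascular markers summed to 3942 and 3916 CPM in the SCN, 11119 and 11843 in hypothalamus and 11027 and 11564 in cortex, and all 6 tested fell in the SCN against either tissue. The 10 neuron markers summed to 36976 and 41813 CPM in the SCN, 59211 and 56408 in hypothalamus and 165979 and 159842 in cortex. Oligodendrocyte markers summed to 1005 and 1551 CPM in the SCN against 4186 and 3568 in hypothalamus. Their part in the members' differences was not tested. Of the 23 tested miRNAs of the cluster's earlier stretch, from miR-379 to miR-300 (39 named), 4 rose and 11 fell between SCN and hypothalamus, 7 rose and 8 fell between SCN and cortex, and 10 rose and 3 fell between hypothalamus and cortex. Of the 22 tested upstream miRNAs of the domain (31 named), 8 rose and 6 fell, 12 rose and 5 fell, and 13 rose and 0 fell. Of all 378 miRNAs, 106 rose and 162 fell, 156 rose and 147 fell, and 158 rose and 62 fell, in the same order. The SCN libraries serve both SCN comparisons, so these counts are not independent.

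The balance of the arms was tested directly, as the log2 ratio of 5p to 3p, in which the scaling of a library cancels but for the pseudocount. Of the 6 precursors of the cluster with both arms at the minimum in tissue, 5 differed between SCN and hypothalamus, against 51.6% of all 91 precursors tested. The ratio was higher in the SCN for miR-377 (4.74-fold, adjusted p = 0.00023), miR-541 (log2 difference 1.59, adjusted p = 0.00075), miR-369 (2.70-fold, 2.7e-05) and miR-154 (1.82-fold, 0.038), and lower for miR-409 (2.24-fold, adjusted p = 9.3e-05). miR-485 did not pass (adjusted p = 0.83). The miR-154 call was lost when SCN replicate 2 or any hypothalamus or cortex library was left out (adjusted p up to 0.18), and the other 4 kept theirs.

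Among the tissue libraries miR-409 gave the clearest order. Its 5p to 3p ratio was 5.98 and 6.80 in the SCN, 14.4 and 14.2 in hypothalamus and 27.1 and 26.5 in cortex. The seed AAUGUUG of the 3p arm thus made up a larger part of miR-409 reads in SCN tissue. Other libraries labelled SCN did not keep this order: the time course gave 8.65 (ZT6) to 32.3 (ZT22), and CT18 gave 0.423 to 0.838. Against cortex the SCN ratio was 4.20-fold lower (adjusted p = 3.3e-06), and hypothalamus was 1.88-fold below cortex (adjusted p = 0.0044). Between SCN and cortex, 4 of 6 precursors differed (57.1% of all), with miR-541 5.05-fold (adjusted p = 6.0e-05), miR-377 1.99-fold (0.018) and miR-369 1.78-fold (0.00032) higher in the SCN. The miR-377 call was lost without SCN replicate 1 or either cortex library (adjusted p up to 0.11).

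Between hypothalamus and cortex 3 of 6 differed (13.2% of all), each with a lower ratio in hypothalamus: miR-409, miR-377 (2.38-fold, adjusted p = 0.024) and miR-369 (1.52-fold, 0.020). All 3 were lost when either cortex library was left out, and miR-377 and miR-369 also without either hypothalamus library (adjusted p up to 0.20). The miR-369 ratio lay above 1 in SCN tissue (1.26 and 1.30) and below 1 in hypothalamus (0.478 and 0.470) and cortex (0.716 and 0.725). That of miR-541 was 73.5 and 135.8 in the SCN, 33.0 and 33.5 in hypothalamus and 18.5 and 21.1 in cortex. For both precursors the SCN tissue libraries lay above those of hypothalamus and cortex. Other libraries labelled SCN did not all follow. For miR-369 the time course gave 0.428 (ZT2) to 1.14 (ZT18), and CT18 gave 0.500 to 0.647. For miR-541 the time course gave 71.9 (ZT22) to 188.9 (ZT10), and CT18 gave 16.9 to 32.4.

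**Figure D3:**
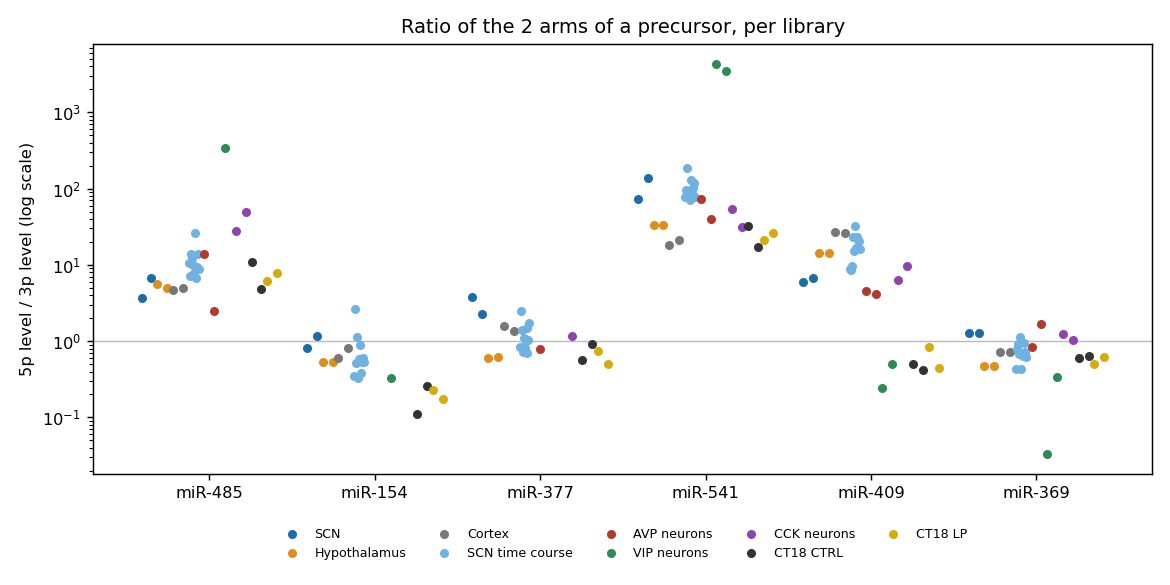
Ratio of 5p to 3p level (log y axis) for 6 precursors (x axis) in each library with at least 3 reads of each arm. Colours are groups. The miR-409 ratio climbs from 5.98 and 6.80 in SCN tissue to 27.1 and 26.5 in cortex. It spans 8.65 to 32.3 along the SCN time course and lies below 1 in VIP neurons and in the CT18 libraries.

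Among neuron types, members were called on the deposited scale in both comparisons with VIP neurons and not between AVP and CCK neurons. Of 20 members tested, 8 were higher and 1 lower in AVP than in VIP neurons, which is 45% of the members tested against 32.8% of all 305 miRNAs (18 and 14.8 by direction). The groups did not overlap for 15 of 20, against 64.6% of all. VIP against CCK neurons gave 2 higher and 6 lower, 40% against 29.8% of all (8.2 and 21.6 by direction), with 12 of 20 not overlapping against 62.6%. The median log2 fold change of the members was 1.56 for AVP against VIP (0.26 over all) and -0.71 for VIP against CCK (-0.93 over all). With median-ratio scaling, which moved those medians of all miRNAs to -0.06 and -0.17, the counts were 4 higher and 4 lower for AVP against VIP, and 2 higher and 3 lower for VIP against CCK. Over all 305 miRNAs that scaling called 34 higher and 62 lower for AVP against VIP, and 38 and 32 for VIP against CCK. On the deposited scale the calls include 4 members, miR-485-3p, miR-541-3p, miR-412-5p and miR-154-3p, that reached the minimum for testing only on 1 side of the comparison with VIP: 4 of the 9 calls against AVP and 4 of the 8 against CCK. Such members had to differ, so the counts are no support for a difference between the types. The VIP libraries serve both comparisons. VIP libraries were also deeper, with 2812318 and 2786568 reads against 537185 and 908476 for AVP and 469808 and 487360 for CCK.

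miR-409-5p, the member with the highest mean over all libraries, was low in VIP neurons. It had 14687.7 and 17273.7 CPM in AVP neurons, 307.9 and 347.3 in VIP neurons and 10242.5 and 10316.1 in CCK neurons. AVP was 48.8-fold above VIP (log2 fold change 5.61 ± 0.16 SE, adjusted p = 0.00032) and VIP 31.4-fold below CCK (adjusted p = 0.00055). Both calls held when any 1 of the 6 libraries was left out (adjusted p at most 0.011) and under each scaling and count model tried. The other arm, miR-409-3p, had 3192 and 4159.6 CPM in AVP, 1252 and 694.7 in VIP and 1593.8 and 1072.2 in CCK. It rose 3.78-fold in AVP against VIP (adjusted p = 0.022), and VIP overlapped CCK. The AVP against VIP call was lost without either AVP library, VIP replicate 2 or either CCK library. It was lost with median-ratio scaling (log2 fold change 1.97 to 1.32, adjusted p = 0.0501) and kept with quantile normalization (0.0019), edgeR (0.038) and DESeq2 (0.0047).

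The 5p to 3p ratio of miR-409 was thus 4.60 and 4.15 in AVP, 0.246 and 0.500 in VIP and 6.43 and 9.62 in CCK neurons. It was 12.5-fold higher in AVP than VIP (adjusted p = 0.0048, lost without AVP replicate 1 at 0.081) and 22.4-fold lower in VIP than CCK (adjusted p = 0.0037, at most 0.042 with any 1 library left out). AVP against VIP had 1 of 5 cluster precursors past the threshold, against 7.69% of all 65, and VIP against CCK 2 of 5, against 18.5%. The second was miR-541, whose 5p to 3p ratio was 4365 and 3478 in VIP neurons, 72.4 and 39.5 in AVP and 53.4 and 31.8 in CCK (90.4-fold above CCK). It was tested because AVP and CCK libraries reached the minimum for its 3p arm, which no VIP library did. Such a ratio had to differ, so this call, 1 of the 2, is no support for a difference and no p is given. The call was lost without VIP replicate 1 or either CCK library, and against AVP the ratio did not pass. No ratio passed for AVP against CCK, where 0 of all 65 were called (10 at an unadjusted p under 0.05, 0 of them in the cluster).

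Several minor members were nearly missing from VIP neurons. miR-485-3p had 124.9 and 474.3 CPM in AVP and 53.2 and 28.7 in CCK against 1.4 and 0.3 in VIP. miR-541-3p had 72.7 and 136.7 in AVP and 72.4 and 104.7 in CCK against 2.1 and 2.1 in VIP. miR-412-5p had 59.6 and 92.6 in AVP and 25.5 and 22.5 in CCK against 0 and 1 in VIP. They were tested because AVP and CCK libraries reached the minimum, which no VIP library did, so that their calls against both types are no support for the difference and no p is given. Outside VIP neurons the lowest level in any of the other 25 libraries was 14.2 CPM for miR-485-3p, 18 for miR-541-3p and 5 for miR-412-5p.

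2 members were found in VIP neurons and hardly in the others. miR-154-3p had 346.3 and 155.1 CPM in VIP neurons and 0 reads in all 4 AVP and CCK libraries, at least 121-fold higher than AVP and at least 79.9-fold higher than CCK by a floor of 3 reads over the group. miR-539-5p had 1155.9 and 1183.2 CPM in VIP neurons, 0 and 5.5 in AVP and 0 and 6.1 in CCK. Among neuron libraries both reached the minimum for testing only in VIP, so no p is given for them. In the other 25 libraries miR-539-5p did not exceed 19.4 CPM, and miR-154-3p did not exceed 49.1. These levels outside the neuron libraries were looked up after the values were seen.

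Among the abundant members, miR-541-5p had 9167.5 and 7304.7 CPM in VIP neurons, 5260.9 and 5399.4 in AVP and 3869.4 and 3325.7 in CCK, and was 2.29-fold higher in VIP than in CCK (adjusted p = 0.014). That call was lost without either CCK library (0.073 and 0.090). Against AVP it did not pass on the deposited scale (log2 fold change of AVP against VIP -0.62, adjusted p = 0.059) or with quantile normalization (-0.28, 0.445). It passed with median-ratio scaling (-1.27, 0.0052), edgeR (0.010) and DESeq2 (4.1e-07). miR-381-3p had 2869.2 and 2838.1 CPM in AVP and 5081.8 and 4724.6 in CCK against 1118.5 and 391.5 in VIP, 3.78-fold above VIP in AVP (adjusted p = 0.039) and 6.49-fold lower in VIP than in CCK (0.022). miR-485-5p had 1761.1 and 1193.5 in AVP and 1489.3 and 1398.9 in CCK against 470.9 and 538.8 in VIP (2.93-fold, adjusted p = 0.014, and 2.86-fold, 0.021). miR-410-3p had 1354.4 and 1719.6 in AVP and 679.2 and 380.3 in VIP (2.90-fold, adjusted p = 0.032), and VIP overlapped CCK at 596.6 and 729.2.

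The calls of miR-381-3p, miR-485-5p and miR-410-3p depended on single libraries and on the scaling. With median-ratio scaling the AVP against VIP calls of miR-381-3p (log2 fold change 2.11 to 1.46, adjusted p = 0.073), miR-485-5p (1.52 to 0.87, 0.086) and miR-410-3p (1.59 to 0.94, 0.075) were lost. The VIP against CCK call of miR-485-5p was lost too (-1.52 to -0.70, 0.169). Quantile normalization kept the AVP against VIP calls of all 3 (adjusted p = 0.0037, 0.047 and 0.031). Of these, edgeR kept none (0.061 to 0.079) and DESeq2 only that of miR-381-3p (0.0082). Against AVP, those of miR-381-3p were lost without either AVP or either CCK library (0.123 to 0.135), of miR-485-5p without either VIP or either CCK library (0.051 to 0.062), and of miR-410-3p without any library but VIP replicate 1 (0.063 to 0.12). Against CCK, miR-381-3p was lost without AVP replicate 2 or either CCK library (0.051 to 0.16) and miR-485-5p without either VIP or CCK library (0.062 to 0.13). The VIP libraries differed widely for some members: miR-668-3p had 1825.9 and 496.4 CPM and miR-487b-3p 1279.1 and 249.6. Neither passed in any neuron comparison with limma, and DESeq2 called miR-668-3p between VIP and CCK (0.010); miR-668-3p was at 1039.1 and 1030.2 in AVP and 451.7 and 638.8 in CCK.

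AVP and CCK neurons gave 0 calls among the 20 members, against 16.7% of all 305 miRNAs (2.62 higher and 14.1 lower); 5 members had an unadjusted p under 0.05. edgeR called 1 member and DESeq2 4, and median-ratio scaling and quantile normalization 3 each, all higher in AVP. Over all 305 miRNAs, edgeR called 7 higher and 21 lower, and DESeq2 17 and 36. Median-ratio scaling called 15 and 43 of them, and quantile normalization 15 and 21. The smallest adjusted p were those of miR-409-5p (1.55-fold higher in AVP, 0.071), miR-409-3p (2.76-fold, 0.075) and miR-410-3p (2.32-fold, 0.11), none of which overlapped between AVP and CCK. For miR-541-5p the fold was 1.48 (0.12) and for miR-668-3p 1.90 (0.44). miR-381-3p was 1.72-fold lower in AVP (0.43); without either VIP library it passed (0.018 and 0.017). The groups did not overlap for 11 of 20 members, against 58% of all.

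**Figure D4:**
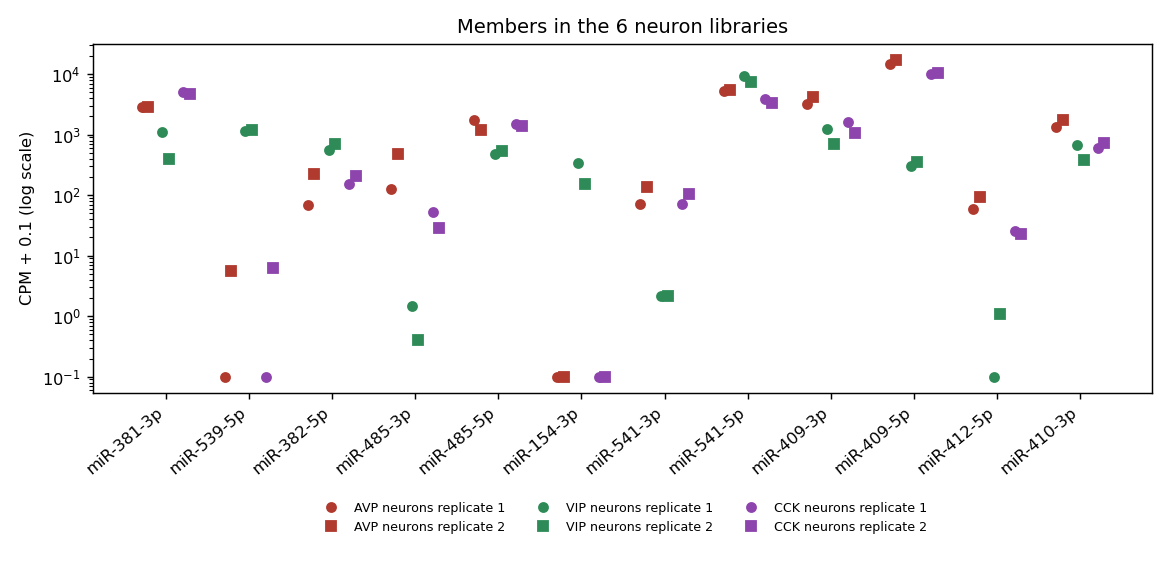
Level (CPM + 0.1, log y axis) of 12 members (x axis, genomic order) in the 6 neuron libraries; colours are types, and circles and squares are replicates 1 and 2. VIP neurons hold 308 and 347 CPM of miR-409-5p against at least 10242.5 in the others, and VIP neurons alone have over 1000 CPM of miR-539-5p.

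Marker sums in the neuron libraries differed too. The 10 neuron markers summed to 4526 and 3754 CPM in AVP, 21808 and 15648 in VIP and 11591 and 13754 in CCK, and the oligodendrocyte markers to 134.3 and 45.1, 1249 and 756.1, and 630.6 and 741.5. The oligodendrocyte sums come from miR-338 alone. The other 3 of the 5 markers, miR-219-5p, miR-219-1-3p and miR-219-2-3p, had 0 reads in every neuron library. The part of the marker sums in the members' differences was not tested. Of the 21 tested miRNAs of the earlier stretch, 5 were higher and 4 lower in AVP than VIP, 0 higher and 4 lower in AVP than CCK, and 2 higher and 5 lower in VIP than CCK. For the 22 upstream miRNAs the counts were 5 and 0, 1 and 1, and 0 and 5. Over all 305 miRNAs they were 55 and 45, 8 and 43, and 25 and 66.

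Along the SCN time course no member passed a test for a 24 h rhythm. Of 21 members tested 0 were called, and of all 357 miRNAs 0 were called (percent called 0; 6 miRNAs and 0 members at an unadjusted p under 0.05). edgeR also called 0, with 13 miRNAs and 1 member at an unadjusted p under 0.05. Each time has 1 library, so a difference between times has no replicate. The smallest p was that of miR-541-3p (0.081, adjusted p = 0.95), with 39.5 CPM at its lowest, 73.7 at the median and 87 at its highest. Next were miR-382-5p (0.12), miR-668-3p (0.23; 439, 659 and 790.9 CPM), miR-381-3p (0.28; 459.1, 569.9 and 776.9) and miR-3072-3p (0.32; 35.1, 103.7 and 151.2), all with the same adjusted p of 0.95.

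Among the most abundant members, miR-409-5p ran from 4117 CPM (ZT10) over a median of 5351 to 7027 (ZT22), a 1.71-fold range, and miR-410-3p from 343.1 (ZT26) over 779.7 to 857.1 (ZT34). miR-541-5p lay between 5604 and 7460 CPM in 10 libraries and reached 11197 at ZT26. That library, the deepest, gave the lowest value of 10 of the 21 members, among them miR-410-3p, miR-3072-3p (35.1 CPM), miR-369-3p (122.3) and miR-154-3p (1.7). The same count was not taken over all miRNAs, so no trait of the cluster can be read from it. The neuron markers at ZT26 summed to 37801 CPM, the lowest of the course. Without ZT26 no member was called, 27 miRNAs and 1 member had an unadjusted p under 0.05, and the members' smallest adjusted p was 0.48.

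Some members were highest in the first libraries and did not return to that level a day later. miR-382-5p had 489.3, 560 and 507.4 CPM at ZT2, ZT6 and ZT10, and 260.4, 199.6 and 167.1 at ZT26, ZT30 and ZT34. Its 8 libraries from ZT14 on lay between 161.9 and 275.2. miR-487b-3p had 465.5 and 419.2 at ZT2 and ZT6 against 160.7 and 238.5 a day later. miR-409-3p had 494.2, 501.6 and 420.5 against 315, 242.6 and 252.1. The hypothalamic markers summed to 52917, 33793 and 17610 CPM at ZT2, ZT6 and ZT10 and to 20676, 15629 and 12026 at ZT26, ZT30 and ZT34, and their part was not tested. The miR-409 ratio of 5p to 3p was 8.79, 8.65 and 9.79 at the first 3 times and 15.3 to 32.3 at the others. This split of the course was seen in the values and has no test.

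**Figure D5:**
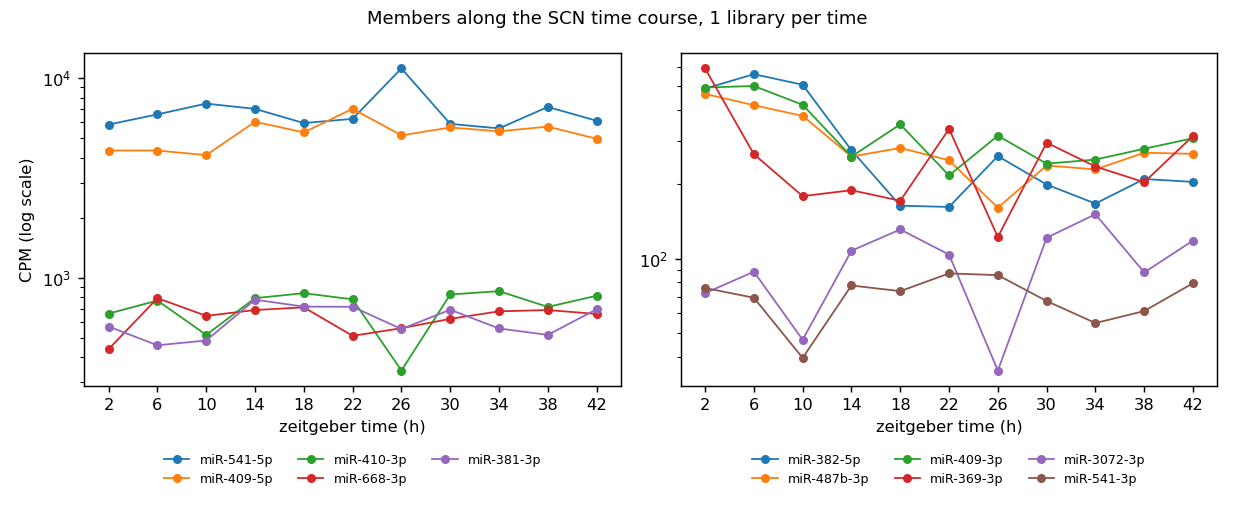
Level (CPM, log y axis) of 11 members against zeitgeber time (h, x axis), 1 library per time. miR-541-5p peaks at 11197 CPM at ZT26, where miR-410-3p and miR-3072-3p are lowest, and miR-382-5p is highest at ZT2 to ZT10.

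At CT18, 0 of 21 members differed between LP and CTRL, and 0 of all 317 miRNAs were called (percent called 0; 1 miRNA and 0 members at an unadjusted p under 0.05; edgeR and DESeq2 called 0). The groups did not overlap for 7 of 21 members, against 18.6% of all. The smallest p were those of miR-377-3p (19.1 and 12.4 CPM in CTRL, 27.7 and 23.8 in LP), miR-409-5p (257.9 and 289.5 against 533.6 and 291.8) and miR-154-3p (14.6 and 13.9 against 31.7 and 15.6), all with an adjusted p of 0.99. For miR-409-5p and miR-154-3p LP replicate 1 was the high library and LP replicate 2 lay near CTRL. Without LP replicate 2, which leaves 1 LP library assumed to vary like CTRL, miR-409-5p passed (adjusted p = 0.0044).

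The other abundant members lay close together. miR-541-5p had 583.4 and 568.8 CPM in CTRL and 827.6 and 592.7 in LP, miR-381-3p 961.3 and 1092.5 against 1507.4 and 901.6, and miR-410-3p 906.6 and 1055.7 against 1136.9 and 926.4. miR-668-3p had 773.2 and 837.1 against 625.9 and 869.2, and miR-409-3p 519.8 and 684.3 against 636.7 and 647.9. In each of these but miR-541-5p the groups overlapped. Arm ratios gave 0 calls of 6 precursors and 0 of all 68 (1 at an unadjusted p under 0.05, 0 in the cluster). The earlier stretch and the upstream miRNAs gave 0 calls of 18 and of 19 tested.

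Against the other libraries labelled SCN, the CT18 libraries had a different make-up of the cluster. miR-409-5p lay between 257.9 and 533.6 CPM in the 4 CT18 libraries, against 4117 to 7027 in the 13 SCN tissue and time-course libraries. miR-541-5p lay between 568.8 and 827.6, against 3240 to 11197. miR-382-3p had 23.8 to 32.6 CPM in all 4 CT18 libraries, whereas the other 23 libraries together held 3 reads of it. Members such as miR-668-3p (625.9 to 869.2 against 439 to 790.9) overlapped. The 5p to 3p ratio of miR-409 was 0.423 to 0.838 at CT18 and 5.98 to 32.3 in the other SCN libraries. These libraries also had the low hypothalamic marker sums given above, and their vascular markers summed to 932.6 to 1607 CPM against 3238 to 6335 in the 13 other SCN libraries. The part of the markers was not tested. Part and batch of the study cannot be told apart from condition, so none of these differences was tested.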

How the data were processed

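Small-RNA libraries of SCN, hypothalamus and cortex, of SCN over time, of SCN neuron types and of SCN at CT18 were grouped by their titles. Per the labels' protocols, tissue was frozen, RNA was extracted with Trizol and libraries followed Illumina protocols; Bowtie and GRCm38 (mm10) are named in the submitters' processing notes. The deposited signal values are whole numbers per mature miRNA that the authors scaled to about 10000000 per library, as the totals of the deposited files show; CPM is the value divided by 10. The values step by what 1 read is worth, so reads were recovered, with 100% of values whole in all 27 libraries. Read totals are the depth, and counting limits the precision of low members.

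miRNAs that reached 100 (10 CPM) in 2 or more libraries (3 in the time course) were tested with limma 3.58.1 (R 4.3.3) on log2(value + 1), in a model for each of the tissue, neuron and CT18 libraries, two-sided, with Benjamini-Hochberg adjustment over all miRNAs tested; the pseudocount understates changes of low members. Arm ratios used the same test on log2(5p + 1) - log2(3p + 1), and the time course a cosine of 24 h. Fold changes in CPM are ratios of group means. Alternatives were edgeR 4.0.16 and DESeq2 1.42.0 on the recovered reads, median-ratio scaling, quantile normalization, other filters and pseudocounts, the replicate number as a block, and leaving out each library. Scripts were tested on simulated data. The files hold normalized values where counts had been planned for, so limma was the main test.

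Members and lists were chosen with earlier results of these data known. In each comparison the text names the 8 called members with the largest log2 fold change among those that do not overlap and reach 50 CPM, the 6 most abundant members, every called arm ratio, 5 members for the rhythm and the 3 smallest p where none passed; other members singled out were chosen after their values were seen. Replicates are not stated to come from separate animals, so p-values measure the spread between these libraries, which may be technical.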

Additional observations from a re-analysis of the deposited data

How the results depend on the processing

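Over all alternatives, 837 values of called results kept their call and 149 lost it, while among results not called 98 passed in some alternative. The count of members called between SCN and hypothalamus (13) was 8 with the stricter filter, which tests fewer miRNAs. For AVP against VIP neurons (9) it was 4 with only the 2 groups compared. For AVP against CCK neurons (0) it was 3 with median-ratio scaling, 3 with quantile normalization, 1 with edgeR, 4 with DESeq2 and 1 with only the 2 groups compared. For VIP against CCK neurons (8) it was 5 with median-ratio scaling (38 higher and 32 lower over all 305 miRNAs), quantile normalization (30 and 26) or edgeR (25 and 10). With 1 library left out, the counts ran from 12 to 14 (SCN against hypothalamus), 15 to 18 (SCN against cortex), 8 to 13 (hypothalamus against cortex), 4 to 9 (AVP against VIP), 0 to 1 (AVP against CCK), 2 to 8 (VIP against CCK), 0 to 1 (CT18) and 0 to 0 (rhythm). Arm ratio calls ran from 4 to 5, 3 to 4, 0 to 4, 0 to 3, 0 to 0, 1 to 3 and 0 to 0 in the same order, without the rhythm. The stricter filter gave 3 arm ratio calls for SCN against hypothalamus and 3 for AVP against VIP, a pseudocount of 10 gave 2 for AVP against VIP, and no filter gave 1 for hypothalamus against cortex. miR-369-5p, not called between hypothalamus and cortex (log2 fold change 0.07), was at -0.38 with quantile normalization (adjusted p = 0.042). The cause of these changes was not tested.

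Replicate numbers were shared between groups. Deviations of same-numbered libraries correlated at -0.09 to 0.12 in tissue and neurons and at 0.25 at CT18. With 2 libraries per group, these correlations cannot show whether same-numbered libraries share an animal or a batch. With the replicate block, VIP against CCK gave 4 members and 1 arm ratio, and the counts of the other comparisons stayed within 1.5 times.

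Without its most abundant member the cluster's mean share was 0.912% (SCN), 0.965% (hypothalamus), 0.699% (cortex), 0.924% (time course), 1.81% (AVP), 0.740% (VIP), 1.46% (CCK), 0.616% (CTRL) and 0.668% (LP). Without the 10 most abundant miRNAs of each library it was 4.09%, 3.76%, 3.47%, 5.35%, 12.6%, 7.48%, 9.79%, 2.09% and 2.14% in the same order.

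Depth limits the neuron libraries most: a count of 0 there allows 1.07 to 6.39 CPM, and 2 libraries per group leave few degrees of freedom.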
